A study of Mus musculus with 11 samples.

Results

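The genes described here are 10 genes of the nitric oxide, cyclic GMP (cGMP) and endothelin pathways of the vessel wall, named as Nos3, Edn1, Ece1, Ednra, Ednrb, Gucy1a1, Gucy1b1, Prkg1, Pde5a and Pde3a. They were taken by symbol from the 32287 genes listed for every library, and each symbol matched 1 gene. The libraries came from a mouse model of CADASIL, an inherited disease of small brain arteries caused by NOTCH3 mutations. The 6 R182C-TgN3 mice (line Tg350 in the labels) carried a human NOTCH3 transgene with the R182C change, and the 5 WT-TgN3 mice (line Tg100) carried the unmutated human transgene, so that both groups had a transgene and no mouse without one was compared. Of the R182C-TgN3 mice, 3 were 9 months old (replicates 1 to 3) and 3 were 6 months old (replicates 4 to 6), while 3 WT-TgN3 mice were 6 months old (replicates 1 to 3) and 2 were 9 months old (replicates 4 and 5). All mice were untreated, and both sexes were used. Brain microvessel fragments were pulled down with beads against CD31, an endothelial surface protein, and then broken up into single cells for droplet sequencing, which favours endothelial cells (EC) over smooth muscle cells (SMC) and pericytes (PC).

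In a vessel wall, endothelial nitric oxide synthase makes nitric oxide, which diffuses to the neighbouring mural cells and activates soluble guanylyl cyclase there. The cyclase makes cGMP, cGMP activates a protein kinase that relaxes smooth muscle, and phosphodiesterases break cGMP down again. Endothelin-1 works the other way: it is cut from its precursor by an endothelin converting enzyme and contracts smooth muscle through the type A receptor, while the type B receptor on endothelium is known for releasing nitric oxide and clearing the peptide.

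Of 66658 barcodes, 58346 were kept as cells, and the libraries held between 17550806 and 64215050 UMIs (unique molecular identifiers, counted transcripts) with a median of 3530 to 7638 UMIs per cell. Clusters were named from marker genes, giving 5224 arterial EC-like, 21784 capillary EC-like, 1945 venous EC-like, 2124 SMC-like and 776 PC-like cells, with between 26 and 179 PC-like cells in a mouse. A set of 2048 endothelial cells was kept apart from these subtypes, 1262 of them from R182C-TgN3 4, and a further 3105 endothelial cells (led by Sdk1, Icam1 and Cyp2e1, median 13502 UMIs) could not be given a subtype. R182C-TgN3 4 and R182C-TgN3 5 shared 350 barcodes, the most of any pair, and leaving out barcodes found in more than 1 library moved no mean level of a member by more than its SD over mice. Levels are given as CPM (the UMIs of a gene summed over the cells of a type in 1 mouse, as a share of all UMIs of those cells on the usual CPM scale), with the mean ± SD over mice. Levels were compared across cell types for 1 gene at a time, as a description without a test, because the clusters were made from expression.

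The promoters of 4 genes are shown because the levels of these genes differed widely between the endothelium and the mural cells, Edn1 being higher in the former and Ednra and both cyclase subunits in the latter. They are the bases before an annotated start, outside annotated exons, from the RefSeq promoter table of GRCm38.p6, written 5′ to 3′ on the gene's strand. Capitals mark GTGGGAA or its reverse complement TTCCCAC, the core sequence bound by RBPJ, the DNA-binding partner of Notch receptors. The Gucy1a1 window is chr3:82145074-82145262 on the minus strand, the Gucy1b1 window is chr3:82074712-82074961 on the minus strand, the Ednra window is chr8:77724465-77724702 on the minus strand and the Edn1 window is chr13:42301226-42301475 on the plus strand.
Gucy1a1: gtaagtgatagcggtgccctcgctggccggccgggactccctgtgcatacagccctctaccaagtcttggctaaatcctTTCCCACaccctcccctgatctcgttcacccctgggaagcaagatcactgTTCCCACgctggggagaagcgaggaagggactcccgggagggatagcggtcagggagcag
Gucy1b1: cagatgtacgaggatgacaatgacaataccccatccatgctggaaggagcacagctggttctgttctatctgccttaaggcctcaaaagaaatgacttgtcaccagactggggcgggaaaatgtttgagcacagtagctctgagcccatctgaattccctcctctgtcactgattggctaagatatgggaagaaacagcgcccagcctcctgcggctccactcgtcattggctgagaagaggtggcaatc
Ednra: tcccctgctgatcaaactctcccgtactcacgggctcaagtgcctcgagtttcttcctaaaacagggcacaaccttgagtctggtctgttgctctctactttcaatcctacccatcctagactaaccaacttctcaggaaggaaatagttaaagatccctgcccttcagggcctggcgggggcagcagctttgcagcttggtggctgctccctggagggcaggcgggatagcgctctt
Edn1: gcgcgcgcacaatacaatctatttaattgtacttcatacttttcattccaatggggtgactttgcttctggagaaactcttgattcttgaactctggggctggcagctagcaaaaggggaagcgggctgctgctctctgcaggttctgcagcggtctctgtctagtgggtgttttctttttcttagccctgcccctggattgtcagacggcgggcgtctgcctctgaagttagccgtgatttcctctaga

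Of the 10 genes, 8 had a promoter in the table, 13 windows in all. The RBPJ core occurred at 110 and at 60 bases before the Gucy1a1 start, both on the opposite strand, and at 229 bases before 1 start of Ece1. It was found in 5.42% of 32851 promoters searched over the same 250 bases on both strands. The letters GATAA, which hold the core of sites for factors of that family, occurred 37 bases before 1 start of Prkg1 and in 22.6% of promoters. TGACTNA, an AP-1 core, and the CArG box of serum response factor were in no window of these genes, against 11.7% and 1.47% of all promoters. A match is a description of the letters only.

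Nos3, endothelial nitric oxide synthase (ENSMUSG00000028978, mm10 chromosome 5, 24364810 to 24384474), was present in every endothelial subtype and highest in arterial EC-like cells. In those cells the R182C-TgN3 mice 1 to 6 held 312.3, 295.3, 237.7, 347.5, 275.9 and 262.4 CPM, and the WT-TgN3 mice 1 to 5 held 303.2, 266.0, 323.3, 338.9 and 289.4 CPM. The genotypes overlapped over most of their range. Over the 11 mice the level was 295.6 ± 33.8 CPM in arterial, 230.1 ± 37.9 CPM in venous and 220.3 ± 26.4 CPM in capillary EC-like cells. The arterial level was above the venous one in 11 of 11 mice, whereas the venous level was above the capillary one in 6 of 11 mice, a difference within its spread. SMC-like cells held 3.88 ± 3.32 CPM, and PC-like cells 69.7 ± 41.8 CPM, a value taken up with the pericytes further on.

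Edn1, the endothelin-1 precursor (ENSMUSG00000021367, chromosome 13, 42301476 to 42307990), showed a steeper gradient along the vascular tree. Its level was 421.3 ± 99.2 CPM in arterial, 200.6 ± 43.9 CPM in capillary and 166.0 ± 38.0 CPM in venous EC-like cells, 2.10 times higher in arterial than in capillary cells. In arterial EC-like cells the R182C-TgN3 mice 1 to 6 held 272.3, 427.8, 453.0, 472.2, 338.6 and 576.6 CPM, and the WT-TgN3 mice 1 to 5 held 505.4, 443.2, 319.3, 521.1 and 304.4 CPM. The lowest arterial value of the 11 mice, 272.3 CPM, lay above the highest capillary value, 249.3 CPM, so that the subtypes did not overlap, while the genotypes did. The capillary level was above the venous one in 10 of 11 mice. SMC-like cells held 3.25 ± 4.17 CPM.

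Ece1, endothelin converting enzyme 1 (ENSMUSG00000057530, chromosome 4, 137862237 to 137965229), was spread more evenly. Arterial EC-like cells held 284.5 ± 22.0 CPM, above the 250.3 ± 24.3 CPM of capillary cells in 11 of 11 mice, and venous cells held 234.1 ± 22.5 CPM. PC-like cells, at 313.5 ± 48.2 CPM, were above arterial cells in 8 of 11 mice, a difference within its spread. SMC-like cells were lower, at 34.6 ± 10.5 CPM, and did not overlap with PC-like cells, the highest SMC-like value being 55.3 CPM and the lowest PC-like value 262.2 CPM.

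Ednra, the type A endothelin receptor (ENSMUSG00000031616, chromosome 8, 77663031 to 77724464), was mural, at 314.0 ± 53.5 CPM in SMC-like and 314.1 ± 84.8 CPM in PC-like cells by clusters. Where the PC-like cells were taken with less endothelial RNA, they held more of it: 464.7 CPM against 317.1 CPM in SMC-like cells with a marker gate on each cell, 444.1 against 314.0 CPM at a doubled clustering resolution and 429.5 against 312.8 CPM with scored doublets kept. In SMC-like cells the R182C-TgN3 mice 1 to 6 held 277.6, 312.7, 255.1, 355.3, 395.1 and 229.5 CPM, and the WT-TgN3 mice 1 to 5 held 348.0, 322.4, 369.5, 334.5 and 253.6 CPM. The R182C-TgN3 mice included both the highest and the lowest value of the 11. In the endothelium 12, 33 and 5 UMIs were counted in all over the arterial, capillary and venous EC-like cells of the 11 mice. Ednrb, the type B receptor (ENSMUSG00000022122, chromosome 14, 103814625 to 103844402), was low in every vascular type, with 5.84 ± 2.08 CPM in arterial, 2.08 ± 0.73 CPM in capillary, 2.37 ± 1.5 CPM in venous EC-like and 19.5 ± 13.1 CPM in PC-like cells. At full depth 3.35% of arterial EC-like cells had an Ednrb UMI, against 0.592% of microglia-like cells, which were shallower. With each cell thinned to 2000 UMIs these shares were 0.947% and 0.276%. Outside the vessel wall, choroid plexus epithelium-like cells held 35.7 ± 15.9 CPM of Ednrb in 6 mice and perivascular macrophage-like cells 22.2 ± 9.54 CPM in 7 mice.

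Gucy1a1 and Gucy1b1 encode the α1 and β1 subunits that together form soluble guanylyl cyclase, the receptor for nitric oxide. They lie on the minus strand of chromosome 3, Gucy1a1 (ENSMUSG00000033910) at 82092427 to 82145789 and Gucy1b1 (ENSMUSG00000028005) at 82032006 to 82074689, with 17737 bases between them. Both were mural, with at most 3.27 CPM of Gucy1a1 and 4.11 CPM of Gucy1b1 in an endothelial subtype on average. Gucy1a1 in SMC-like cells was 495.8, 542.5, 500.5, 662.9, 712.0 and 478.7 CPM in the R182C-TgN3 mice 1 to 6 and 647.5, 486.1, 633.9, 582.0 and 554.2 CPM in the WT-TgN3 mice 1 to 5. Gucy1b1 in SMC-like cells was 359.0, 416.7, 289.1, 484.8, 465.3 and 363.5 CPM in the R182C-TgN3 mice and 418.2, 408.9, 432.9, 420.6 and 367.0 CPM in the WT-TgN3 mice. For both genes the WT-TgN3 values lay inside the range of the R182C-TgN3 values. Gucy1b1 was higher in PC-like cells (697.7 ± 166.4 CPM) than in SMC-like cells (402.4 ± 54.8 CPM) in 11 of 11 mice. Gucy1a1 was 572.4 ± 81.0 CPM in SMC-like and 465.5 ± 139.6 CPM in PC-like cells, a difference within its spread whose direction turned with the way the cells were taken: PC-like cells held 632.3 CPM against 576.4 CPM in SMC-like cells with the marker gate, 621.6 against 572.4 CPM at the doubled resolution and 641.0 against 572.7 CPM with doublets kept.

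Prkg1, the cGMP-dependent protein kinase (ENSMUSG00000052920, chromosome 19, 30564489 to 31765033), was highest in SMC-like cells, at 3406.9 ± 677.5 CPM, and reached 2429.1 ± 481.5 CPM in PC-like cells. Among the endothelial subtypes it was highest in venous EC-like cells, which held 2356.0 ± 577.6 CPM, 4.07 times the capillary level of 579.0 ± 92.0 CPM, and arterial cells held 467.8 ± 129.3 CPM. The endothelial cells without a subtype held 1203 ± 188.5 CPM. In venous EC-like cells the R182C-TgN3 mice 1 to 6 held 3121.2, 1947.9, 1875.1, 2063.9, 2943.5 and 1772.6 CPM, and the WT-TgN3 mice 1 to 5 held 2798.6, 2043.1, 3215.4, 2504.2 and 1629.8 CPM. The lowest of these was above the highest capillary value, 696.7 CPM. By clusters, venous and PC-like levels did not differ beyond their spread, the PC-like level being higher in 5 of 11 mice. With the marker gate in place of clusters they were apart, at 1374 ± 298.9 CPM in venous EC-like and 2990 ± 402.2 CPM in PC-like cells, and they were 2136 and 3053 CPM at the doubled resolution and 2094 and 3083 CPM with doublets kept. The gate took 6812 cells as venous EC-like, against 1945 by clusters, so the venous levels of the 2 ways are from different sets of cells. Venous EC-like cells held few transcripts of Ednra, Gucy1a1 and Gucy1b1, with 5, 18 and 11 UMIs in all. Pde5a, also highest in mural cells, was present in them at 45.4 CPM. Prkg1 spans 1200545 bases, and whether reads from introns were counted is not given in the sources used here.

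Pde5a and Pde3a encode phosphodiesterases: the Pde5a enzyme breaks down cGMP, and the Pde3a enzyme breaks down cyclic AMP and is inhibited by cGMP. Pde5a (ENSMUSG00000053965, chromosome 3, 122728947 to 122859374) was 558.9 ± 87.6 CPM in SMC-like and 248.9 ± 53.1 CPM in PC-like cells, and 45.4 ± 7.47, 38.0 ± 6.58 and 31.4 ± 8.19 CPM in venous, capillary and arterial EC-like cells. The venous level of Pde5a was above the capillary level in 11 of 11 mice. Pde3a (ENSMUSG00000041741, chromosome 6, 141249269 to 141507448) was 2107.6 ± 385.0 CPM in SMC-like and 438.4 ± 151.3 CPM in PC-like cells, a ratio of 4.81 without overlap between the types, and no more than 4.92 CPM on average in any endothelial subtype.

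**Figure D1:**
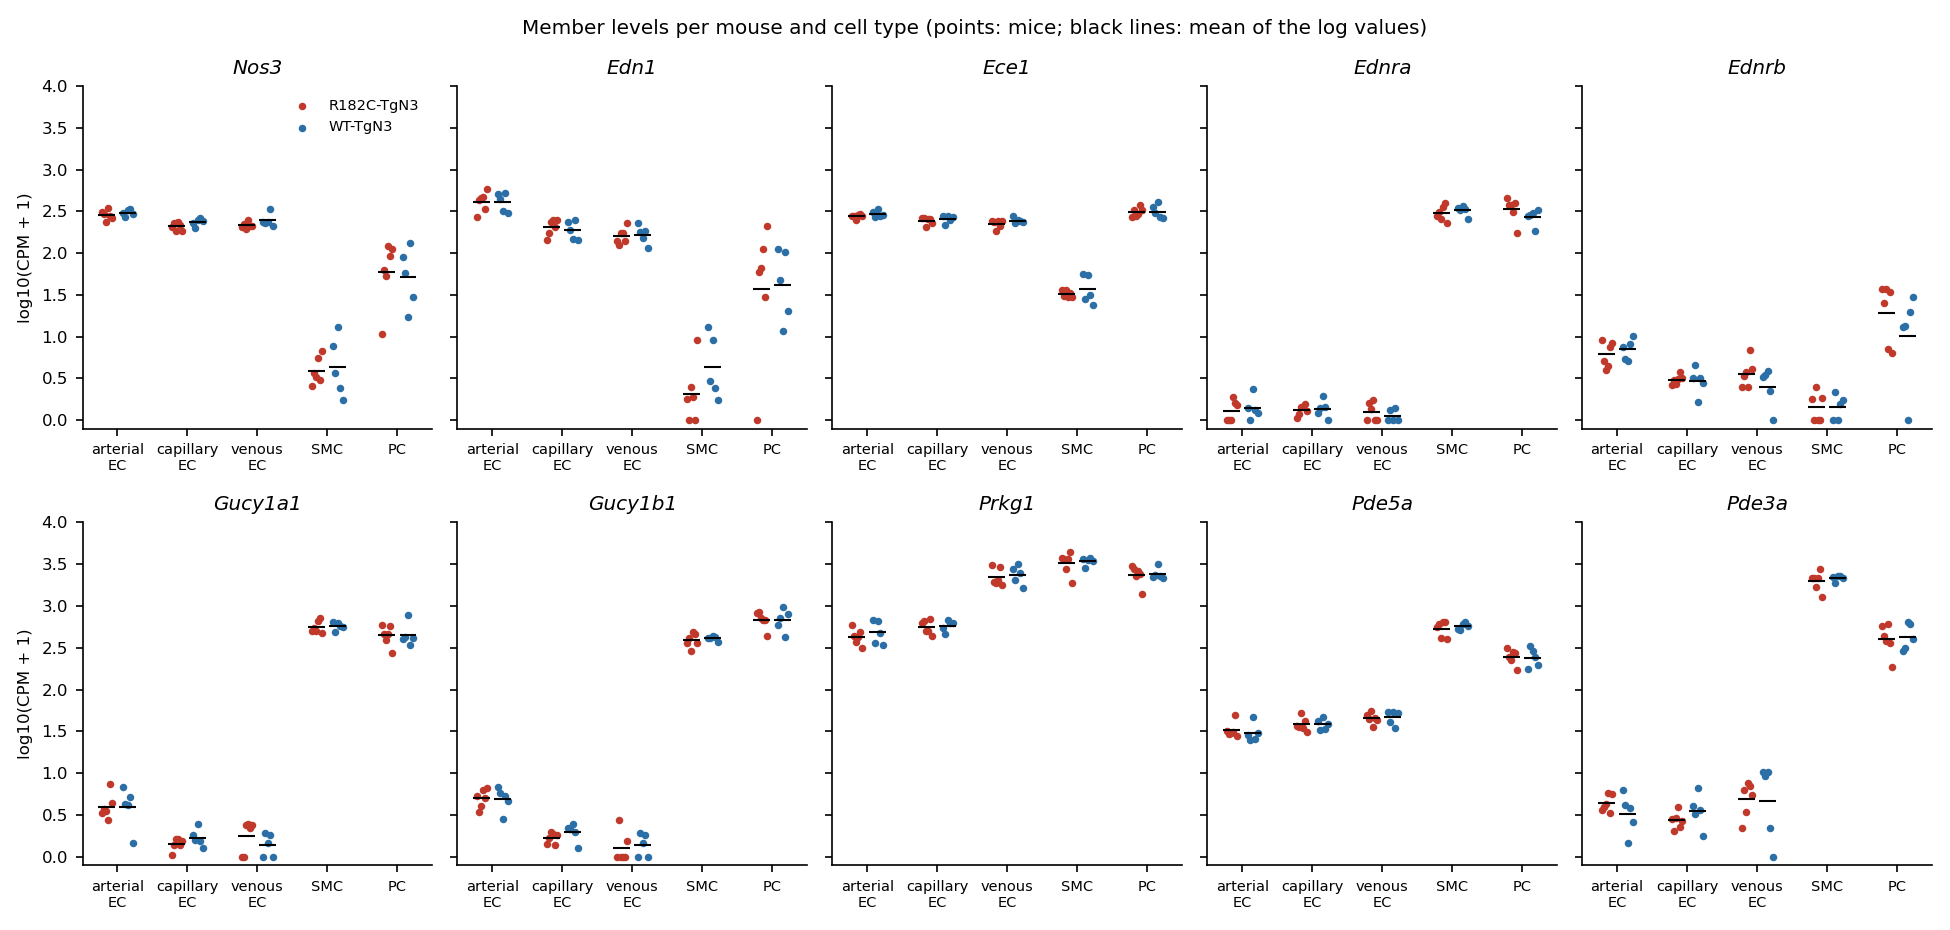
Levels of the 10 genes in each cell type, 1 panel per gene, as log10(CPM + 1) of the summed UMIs (vertical axis), with 1 point per mouse coloured by genotype and black lines at the mean of the log values. Nos3 and Edn1 are high in the 3 endothelial subtypes, Ednra, Gucy1a1, Gucy1b1, Pde5a and Pde3a are high in SMC- and PC-like cells, Prkg1 is high in SMC-, PC- and venous EC-like cells, and the genotypes overlap in each panel.

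The share of cells with at least 1 UMI was read after each cell was thinned to 2000 UMIs, leaving out shallower cells, 25 of 2124 SMC-like and 114 of 776 PC-like cells among them. In SMC-like cells (median depth 7980 UMIs) 97.7% of cells had a Prkg1 UMI, 93.8% a Pde3a UMI, 65.2% a Gucy1a1 UMI, 52.4% a Gucy1b1 UMI and 44.1% an Ednra UMI. In PC-like cells (median depth 3687 UMIs) the share was 73.6% for Gucy1b1, 58.7% for Gucy1a1 and 48.1% for Ednra. In microglia-like cells (median depth 4938 UMIs), where these receptors are not known to be expressed, the shares for Gucy1a1, Gucy1b1 and Ednra were 0.107%, 0.130% and 0.0442%. Prkg1 was found in 90.4% of venous, 49.4% of capillary and 39.0% of arterial EC-like cells, against 16.9% of microglia-like cells, in which its level was 132.3 ± 23.0 CPM. Unthinned, those shares of Prkg1 were 97.1%, 63.6%, 59.2% and 27.3%.

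The genes whose mean levels over 11 cell types followed each member most closely, by Pearson correlation of log2(CPM + 1) among 11963 genes and without a test, were endothelial receptors or signalling genes for Nos3 (Ptprb, r = 0.995, Tek, r = 0.993 and Rasip1, r = 0.993). For Ednra they were Heyl (r = 0.992), Pde1a (r = 0.989) and Mrvi1 (r = 0.984), for Gucy1a1 Pakap, Slc7a2 and Nr2f1 (r = 0.991 to 0.985), for Gucy1b1 Cacna1c, Carmn and Daam2 (r = 0.985 to 0.983) and for Pde3a Myl9, Npy1r and Rgs4 (r = 0.988 to 0.986). Edn1 was followed by Slc2a1, Layn and Tmem44 (r = 0.972 to 0.966), and Ece1 by Vsig10, Scarf1 and Gpr4 (r = 0.967 to 0.961). Prkg1 was followed by Zfp945, Ppp2r3a and Btbd3 (r = 0.965 to 0.957), Pde5a by Phldb2, Snhg18 and Pkia (r = 0.967 to 0.956) and Ednrb, the lowest of the members, by Uck1, Tsr3 and Lamb1 (r = 0.921 to 0.887). The 11 points share the same libraries, and the cell types differ in depth. Ptprb and Myl9 were also among the markers used to name the clusters, so a high correlation with an endothelial or smooth muscle gene was built in for them.

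Within the endothelium, the subclusters added an arterial order. The arterial subcluster led by Cytl1, Bgn and Fbln5, 617 cells, held 450.7 ± 65.0 CPM of Nos3 and 551.1 ± 189.1 CPM of Edn1. The subcluster led by Gkn3, Egfl8 and Wnt5b, 2937 cells, held 265.8 ± 29.3 CPM of Nos3 and 415.0 ± 95.4 CPM of Edn1, and the one led by Ccn3, S100a4 and S100a6, 1670 cells, held 301.9 ± 39.0 and 393.3 ± 121.1 CPM. For Edn1 the mice overlapped across these subclusters, at 251.9 to 906.1, 247.3 to 551.6 and 238.9 to 597.3 CPM in turn. Nos3 was on average highest in the smallest arterial subcluster. The lowest value of a mouse there, 338.8 CPM, exceeded the highest in the Gkn3-led subcluster, 309.8 CPM. It did not exceed the highest in the Ccn3-led subcluster, 355.9 CPM. Nos1, the neuronal nitric oxide synthase and no member of the 10, followed the same order at 327.8 ± 72.2, 178.3 ± 45.6 and 137.4 ± 29.7 CPM in the Cytl1-, Ccn3- and Gkn3-led subclusters. Over all arterial EC-like cells Nos1 was 167.4 ± 37.0 CPM, against 2.19 ± 0.75 CPM in capillary EC-like cells.

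Prkg1 ranged widely among the subclusters. In arterial cells it was 1221 ± 503.0 CPM in the Cytl1-led, 517.7 ± 102.9 CPM in the Gkn3-led and 130.9 ± 42.8 CPM in the Ccn3-led subcluster. In capillary cells it ran from 137.6 ± 34.4 CPM (led by Olfm5, Tcim and Zfp462) to 1156 ± 140.8 CPM (led by Angpt2, Apln and Meox1), without overlap between these, the highest value of a mouse being 202.6 CPM in the former and the lowest 953.0 CPM in the latter. Venous cells led by Lrg1, Ackr1 and Selp held 2653 ± 653.3 CPM in 10 mice and those led by Col6a6, Cysltr1 and Adgrg6 held 1771 ± 379.0 CPM in 11 mice. Edn1 among capillary subclusters ran from 125.4 ± 31.4 CPM (led by Mrln, Car4 and Hist1h1e) to 308.5 ± 92.4 CPM (led by Slc26a10, Cxcl12 and Runx1t1), while Nos3 stayed between 193.0 and 239.8 CPM. Ednrb was 12.8 ± 5.33 CPM in the Ccn3-led arterial subcluster and no more than 3.47 CPM on average in any other endothelial subcluster. Gucy1b1 was 11.7 ± 5.17 CPM in the Ccn3-led subcluster and no more than 2.87 CPM on average in any other. Gucy1a1 was 10.2 ± 9.50 CPM in the Cytl1-led and 6.47 ± 3.06 CPM in the Ccn3-led subcluster, against 0.565 ± 0.580 CPM in the Gkn3-led one.

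**Figure D2:**
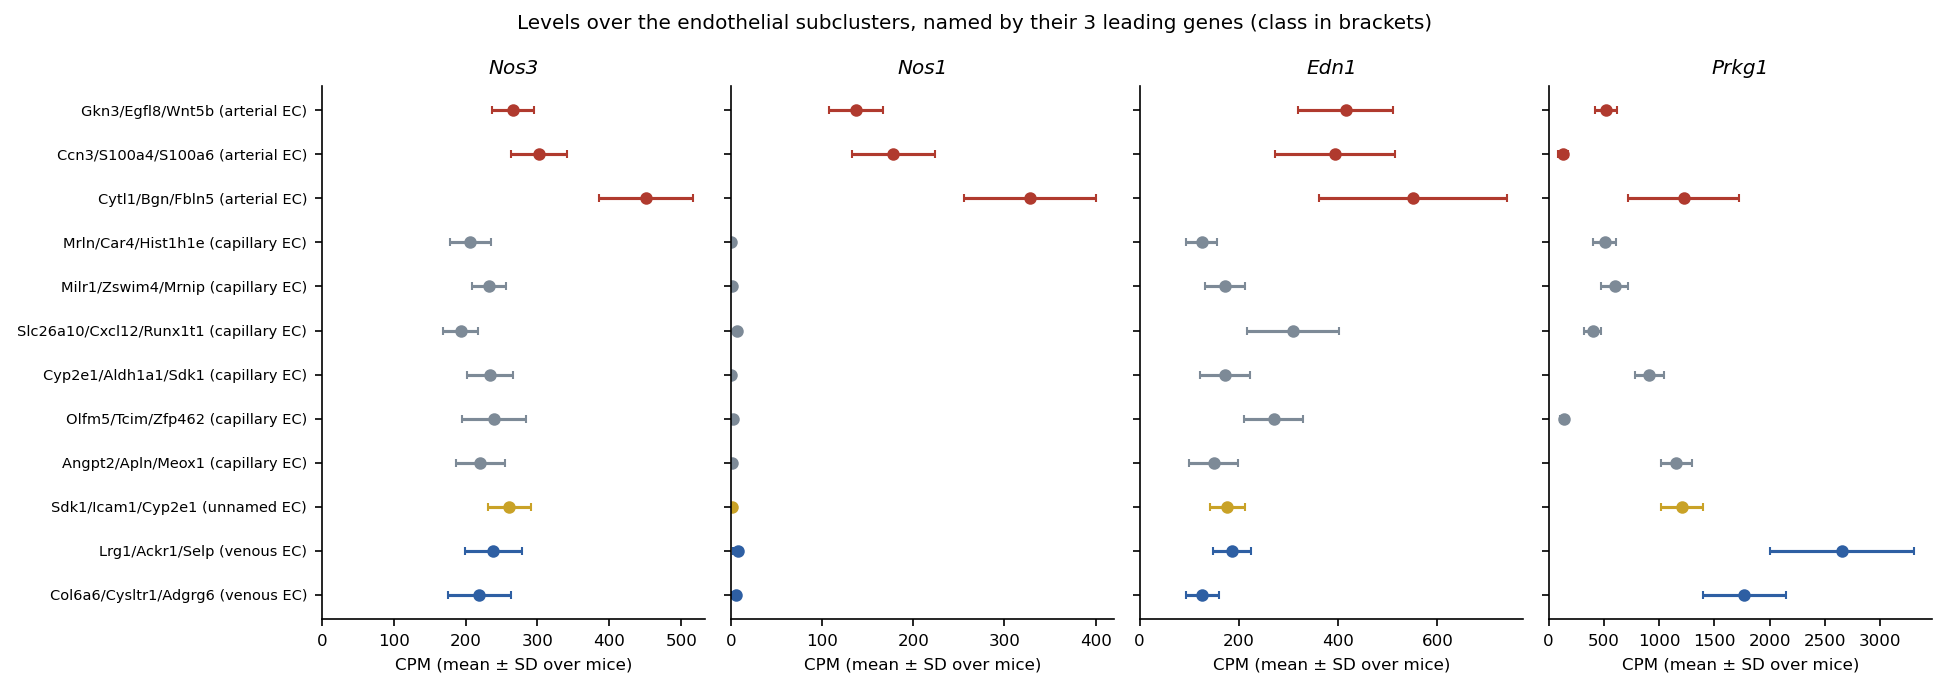
Mean ± SD over mice of the CPM of Nos3, Nos1, Edn1 and Prkg1 (horizontal axes) in the endothelial subclusters (vertical axis, named by their 3 leading genes, coloured by class). Nos3 and Nos1 are highest in the Cytl1-led arterial subcluster (450.7 and 327.8 CPM), and Prkg1 is highest in the Lrg1- and Col6a6-led venous subclusters (2653 and 1771 CPM).

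The Nos3 and Edn1 transcripts in PC-like cells came with those of other endothelial genes. Each of 10 endothelial markers was present in PC-like cells at 25.3% to 33.5% of its capillary level, Nos3 stood at 31.7% and Edn1 at 34.5%, and Ece1 stood at 125%. In SMC-like cells the same markers were at 0.788% to 3.93%, and none of the 10 was at 0 in either mural type. The sum of the markers in PC-like cells ran from 1465 to 11142 CPM over the R182C-TgN3 mice and from 2350 to 9558 CPM over the WT-TgN3 mice. Over the 11 mice this sum followed the Nos3 level in the same cells (Pearson r = 0.89, Spearman rho = 0.89) and the Edn1 level (r = 0.87, rho = 0.91), and followed the Ece1 level less (r = 0.16, rho = 0.22). These are descriptions over libraries that differ in depth and PC-like cell number. R182C-TgN3 1, with the lowest sum, held 9.79 CPM of Nos3 and 0 Edn1 UMIs, which allows up to 9.79 CPM by counting error alone.

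These values moved with the way the PC-like cells were taken. At a doubled clustering resolution 578 PC-like cells held 5.94 ± 6.2 CPM of Nos3, 5.97 ± 5.80 CPM of Edn1 and 359.0 ± 61.6 CPM of Ece1, and the marker sum was 805.8 CPM. With a marker gate on each cell, which left 479 cells in 10 mice, Nos3 was 3.59 ± 4.91 CPM, Edn1 2.62 ± 3.69 CPM and Ece1 390.2 ± 58.1 CPM. Ece1 was no lower in these cells, while the endothelial markers, Nos3 and Edn1 were. The gate itself leaves out cells with several of the same markers detected, so the lower markers under it were set by its design. CPM are shares, so less endothelial RNA also raises the level of other genes. The gated values therefore give no separate test of Nos3, Edn1 or Ece1. The same gate put Ednra at 464.7 ± 91.7 CPM, Gucy1a1 at 632.3 ± 145.7 CPM, Gucy1b1 at 1017 ± 85.0 CPM and Ednrb at 35.8 ± 29.9 CPM. With scored doublets kept, Nos3 was 4.70 ± 3.79 CPM, Edn1 5.93 ± 5.76 CPM and Pde3a 660.5 ± 183.4 CPM. With at least 1000 genes required per barcode, 633 PC-like cells in 10 mice held more endothelial RNA, with 82.8 ± 55.1 CPM of Nos3, 85.2 ± 74.5 CPM of Edn1 and a marker sum of 7420 CPM.

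**Figure D3:**
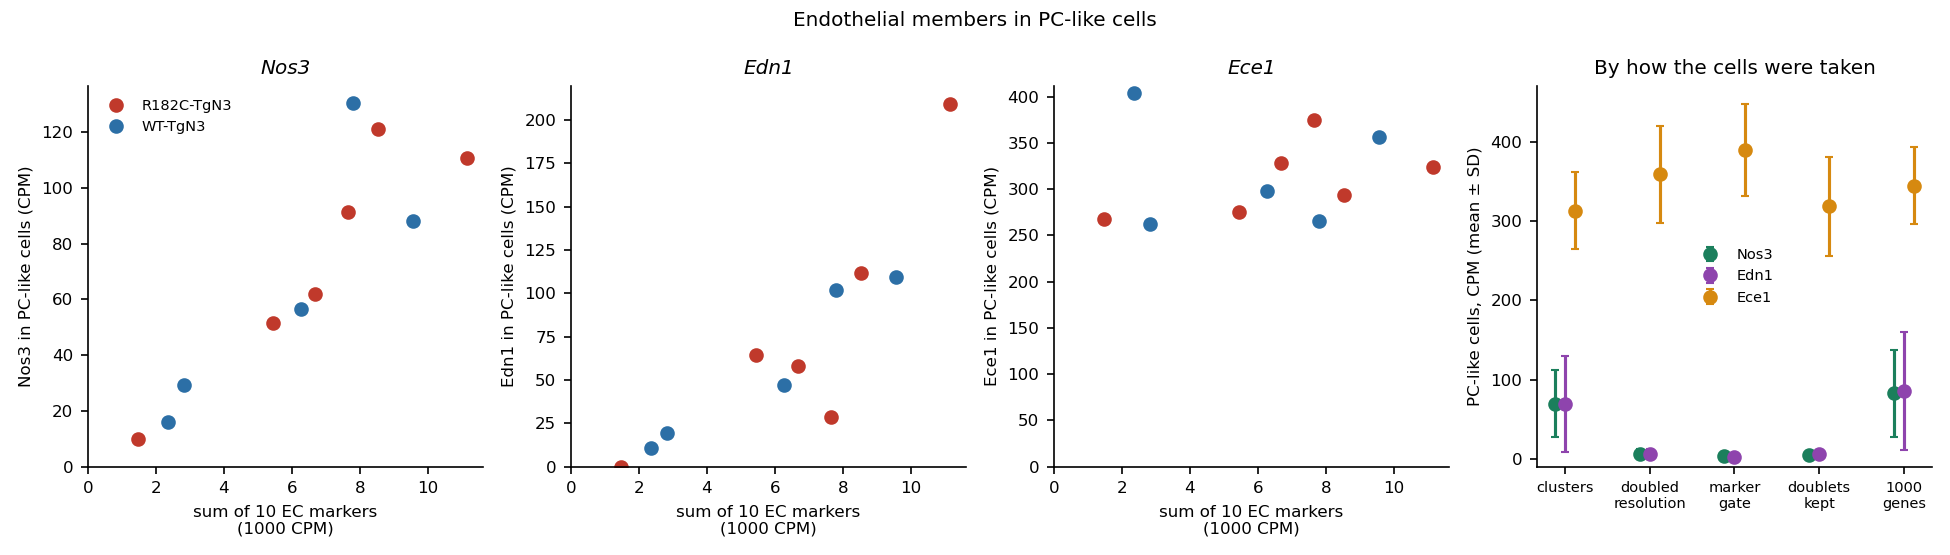
Nos3, Edn1 and Ece1 in PC-like cells (vertical axes, CPM) against the summed level of 10 endothelial markers in the same cells (horizontal axes, 1000 CPM), with 1 point per mouse coloured by genotype, and, at the right, the mean ± SD of the same genes under 5 ways of taking the cells. Nos3 and Edn1 follow the marker sum, are under 6 CPM at the doubled resolution, by the gate and with doublets kept, and are at 82.8 and 85.2 CPM with 1000 genes per barcode, while Ece1 is at 313.5 CPM by clusters and 390.2 CPM by the gate.

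The comparison of genotypes asked whether the mutant transgene changed these genes. The human NOTCH3 transgene itself was counted first. In SMC-like cells it was 200.6, 250.4, 268.7, 214.8, 204.6 and 366.0 CPM in the R182C-TgN3 mice 1 to 6 and 16.2, 61.7, 20.2, 71.0 and 38.0 CPM in the WT-TgN3 mice 1 to 5. The groups did not overlap, with a log2 fold change of 2.46 (SE 0.26, 95% interval 1.92 to 3.00) and an adjusted p of 5.37e-05 by edgeR's quasi-likelihood test with Benjamini-Hochberg adjustment. In PC-like cells human NOTCH3 was 581.2 to 1149 CPM in the R182C-TgN3 and 168.5 to 355.8 CPM in the WT-TgN3 mice, again without overlap, and was not called over all genes (log2 fold change 1.58, SE 0.25, adjusted p = 0.0649, and 0.456 with the label batch as a covariate, by the same edgeR test). Mouse Notch3 in SMC-like cells was 609.2 ± 88.8 CPM in R182C-TgN3 and 657.4 ± 46.6 CPM in WT-TgN3 mice, although reads from stretches shared by the human and mouse genes could be split between them. The mutation, the transgenic line and the amount of human NOTCH3 RNA therefore cannot be told apart in these groups.

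None of the 10 genes was called between the genotypes by edgeR's quasi-likelihood test with Benjamini-Hochberg adjustment over all genes. The model held genotype alone, with both ages, both sexes and all label batches pooled. Differences between these therefore counted as spread between mice and made the test less able to call a gene. Between 6 and 9 of them passed the filter on low counts in a cell type, 39 combinations of gene and type in all, and 0 of these had an unadjusted p under 0.05. Over all genes, 0 of 10464 in arterial, 0 of 11639 in capillary, 0 of 9783 in venous EC-like and 0 of 5686 in PC-like cells were called, a background of 0%, with 157, 219, 294 and 152 genes at an unadjusted p under 0.05 and 0, 0, 0 and 1 called by DESeq2. In SMC-like cells 1 of 8662 genes was called (0.0115%), the transgene itself, with 207 at an unadjusted p under 0.05 and 1 called by DESeq2. Of the 39 combinations 38 had a 95% interval of the log2 fold change, which lay within ± 0.5 in 22 and within ± 1 in 32. In the remaining 6 the interval reached past a 2-fold change. The p-values measure the spread between the mice.

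Nos3 had the smallest unadjusted p of the 39 combinations. In capillary EC-like cells it was 206.1, 228.7, 180.6, 236.5, 215.8 and 182.4 CPM in the R182C-TgN3 mice 1 to 6 and 225.1, 198.7, 245.0, 264.3 and 239.7 CPM in the WT-TgN3 mice 1 to 5. The R182C-TgN3 values sat lower on average and overlapped the WT-TgN3 values, with a log2 fold change of -0.13 (SE 0.07, 95% interval -0.29 to 0.03, unadjusted p = 0.0955 in edgeR's quasi-likelihood fit across all genes). The log2 fold change of Nos3 was -0.18 (SE 0.12) in venous and -0.04 (SE 0.10) in arterial EC-like cells. For Edn1 it was 0.06 (SE 0.19) in arterial, 0.16 (SE 0.18) in capillary and -0.03 (SE 0.17) in venous EC-like cells. For Ece1 it was between -0.08 and -0.03 in the 3 endothelial subtypes, with SE of at most 0.10. Prkg1 in venous EC-like cells had a log2 fold change of -0.05 (SE 0.18).

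In SMC-like cells the 7 members tested had log2 fold changes between -0.10 and -0.01, with SE of 0.12 to 0.20, and a median of -0.06, against -0.003 over all genes. Their median absolute change was 0.056, against 0.105 over all genes. Pde3a there was 2135.6, 2188.1, 1706.8, 2189.8, 2801.9 and 1274.0 CPM in the R182C-TgN3 mice 1 to 6 and 2221.7, 1897.2, 2257.7, 2316.6 and 2193.6 CPM in the WT-TgN3 mice 1 to 5. Pde5a was 560.4, 601.7, 410.6, 643.6, 647.8 and 401.4 CPM in the R182C-TgN3 mice and 535.5, 513.7, 601.5, 648.7 and 583.3 CPM in the WT-TgN3 mice. A single mouse stood low for several genes at once, as R182C-TgN3 6 had the lowest SMC-like level of the 11 mice for 5 of the 7 members tested (Ednra, Gucy1a1, Prkg1, Pde5a and Pde3a), and the lowest PC-like level for 5 of 9 (Ednra, Gucy1a1, Prkg1, Pde5a and Pde3a). The summed endothelial markers in its PC-like cells were the highest of the 11 mice, 11142 CPM, and their part in the low levels was not tested. Within the label batch that it shared with WT-TgN3 3 the difference was negative for 7 of 7 members in SMC-like cells, from -0.90 to -0.25 on the log2 scale, whereas in another batch (R182C-TgN3 4 and 5 with WT-TgN3 1 and 2) it was positive for 6 of 7, from -0.35 to 0.32, and in the third batch that held both genotypes it was positive for 3 of 7.

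In PC-like cells Ednra had a log2 fold change of 0.33 (SE 0.23, 95% interval -0.15 to 0.82). Its level was 450.2, 373.0, 374.6, 311.6, 393.9 and 171.6 CPM in the R182C-TgN3 mice 1 to 6 and 279.9, 285.3, 301.8, 182.7 and 330.2 CPM in the WT-TgN3 mice 1 to 5. Of the R182C-TgN3 mice, 5 were at or above 311.6 CPM, and R182C-TgN3 6 had the lowest value of the 11. The summed level of 5 red blood cell markers in PC-like cells differed between the groups. It was 5.36 to 302.5 CPM (mean 67.3 CPM) in R182C-TgN3 and 2.37 to 18576 CPM (mean 8754 CPM) in WT-TgN3 mice. The part of this RNA in the PC-like fold changes was not tested. Gucy1b1, at -0.01 (SE 0.22), and Prkg1, at -0.02 (SE 0.20), were near 0 over all mice. Within label batches their differences on the log2 scale went both ways. For R182C-TgN3 1 and 2 with WT-TgN3 4 and 5 they were 0.51 and 0.38. For R182C-TgN3 4 and 5 with WT-TgN3 1 and 2 they were 0.06 and 0.14. For R182C-TgN3 6 with WT-TgN3 3, 1 mouse each, they were -1.16 and -1.20. Of the 9 members tested, 7, 8 and 2 were positive in these batches in turn. With the label batch as a covariate the sign of the fold change was kept in 28 of the 39 combinations. Within the 3 batches that held both genotypes, 3 of 32 combinations of gene and type went 1 way in each batch (Nos3 and Ece1 in venous EC-like cells, lower in R182C-TgN3 mice, and Ednrb in PC-like cells, higher).

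**Figure D4:**
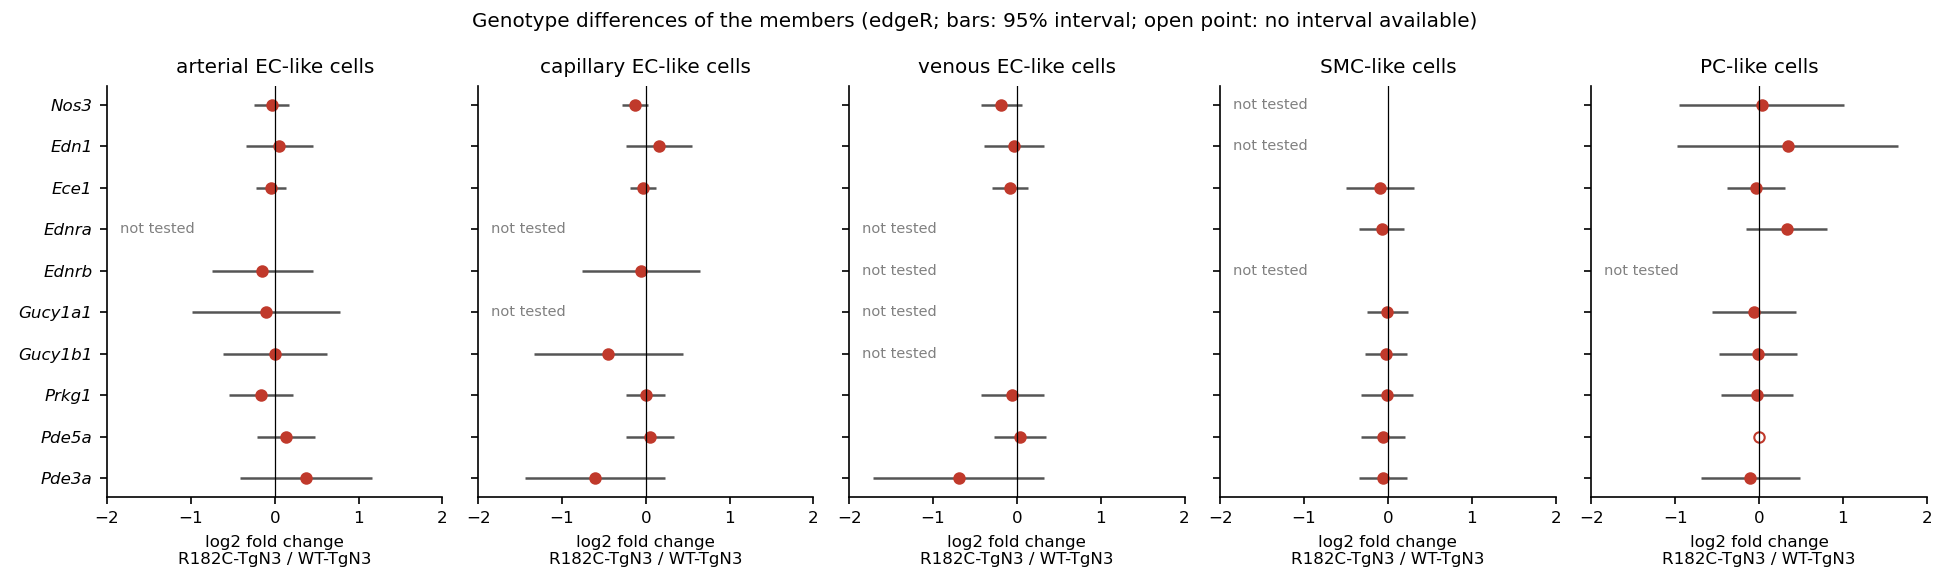
Log2 fold change of each member, R182C-TgN3 over WT-TgN3 mice (horizontal axes), with the 95% interval from edgeR as bars, 1 panel per cell type and an open point where no interval was available. No interval excludes 0, and the intervals are narrowest for Nos3 and Ece1 in endothelial cells and widest for Nos3 and Edn1 in PC-like cells and for the mural genes in endothelial cells.

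The comparison of ages set 9-month against 6-month mice with genotype in the model. No label batch held both ages, so that age and batch cannot be told apart. By edgeR's quasi-likelihood test with Benjamini-Hochberg adjustment none of the 39 combinations of gene and type was called, against 0.937% of all genes in arterial, 1.46% in capillary, 0.0307% in venous EC-like, 0.462% in SMC-like and 0% in PC-like cells (348 genes at an unadjusted p under 0.05 in the last, and 0 called by DESeq2). The lowest unadjusted p was that of Pde3a in venous EC-like cells, with a log2 fold change of -1.64 (SE 0.42, 95% interval -2.52 to -0.75) and an adjusted p of 0.212 by edgeR's quasi-likelihood test. The level was 4.43 to 9.43 CPM in the 6 mice at 6 months (median 7.39 CPM, 88 UMIs in all) and 0 to 5.33 CPM in the 5 mice at 9 months (median 1.22 CPM, 23 UMIs in all), the 0 in WT-TgN3 5 allowing up to 6.44 CPM. The ages overlapped. The summed level of 10 smooth muscle markers in the same cells was 80.6 to 131.8 CPM at 6 months and 58.3 to 82.2 CPM at 9 months, and its part in the result was not tested. With no filter on low counts the adjusted p of Pde3a was 0.00883, and with the marker gate 0.0463 at a log2 fold change of -2.11, by the same edgeR test.

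Other age differences of the members were smaller. In SMC-like cells Gucy1b1 had a log2 fold change of -0.23 (SE 0.11) and Ednra of -0.24 (SE 0.12), and 6 of the 7 members tested there were negative, with a median of -0.19 against -0.004 over all genes. In arterial EC-like cells 8 of 9 members were negative, with a median of -0.18 against -0.004 over all genes. The median absolute change was 0.23, against 0.12 over all genes. The lowest were Gucy1a1 (-0.61), Pde3a (-0.47) and Gucy1b1 (-0.38), mural genes at no more than 4.11 CPM there, near the floor. Nos3 (-0.005), Prkg1 (-0.10) and Ece1 (-0.11) were nearest 0. None of these passed the threshold.

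Whether the genotype difference itself differed between the ages was tested with an interaction term. By edgeR's quasi-likelihood test with Benjamini-Hochberg adjustment, 0 genes were called in any of the 5 cell types, members included, a background of 0%. At an unadjusted p under 0.05 in this edgeR fit were 253 of 10984 genes in arterial, 369 of 12208 in capillary and 526 of 10387 in venous EC-like cells. In SMC-like cells there were 229 of 9372 genes, and in PC-like cells 591 of 6972. DESeq2 called 9 genes in venous EC-like cells and 0 in the others. Of the 41 combinations of member and type, 4 had an unadjusted p under 0.05 in the same edgeR fit. They were Pde5a (log2 difference 0.66, SE 0.29, adjusted p = 0.921) and Pde3a (2.10, SE 0.95, adjusted p = 0.963) in venous EC-like cells, Ece1 in SMC-like cells (0.80, SE 0.35) and Nos3 in PC-like cells (-2.04, SE 0.75, adjusted p = 0.555). For Pde3a, 3 and 0 UMIs were counted in the 9-month WT-TgN3 mice 4 and 5. As no label batch held both ages, a genotype difference that varied with age cannot be told apart from one that varied between batches. With no filter on low counts Nos3 (adjusted p = 0.00828) and Edn1 (adjusted p = 0.0321) in PC-like cells were called by the same edgeR test. For Nos3 the PC-like level by clusters moved with the endothelial markers described above, and the part of these markers in the interaction was not tested.

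A list of 60 genes of these pathways, the 10 members included, gave the setting. At least 10 CPM in 1 or more of the 5 types was reached by 13 of 15 genes of nitric oxide synthesis and its control, 5 of 10 cyclase and natriuretic peptide genes, 9 of 10 cGMP kinase and target genes, 8 of 10 phosphodiesterases and 12 of 15 endothelin genes. Nostrin, which binds endothelial nitric oxide synthase, was highest in capillary EC-like cells (466.5 ± 73.7 CPM). Edn3, a further endothelin, was 159.0 ± 27.1 CPM in arterial and 70.9 ± 15.2 CPM in capillary EC-like cells. Gucy1a2, the α2 cyclase subunit, was 588.8 ± 150.5 CPM in PC-like and 286.7 ± 78.2 CPM in SMC-like cells. Mrvi1, a target of the cGMP kinase in the sarcoplasmic reticulum, was 575.3 ± 118.5 CPM in SMC-like and 216.6 ± 63.0 CPM in PC-like cells, whereas Pln, phospholamban, was 1263 ± 85.6 CPM in SMC-like and 12.8 ± 19.97 CPM in PC-like cells. Kcnma1, a large-conductance potassium channel, was 540.9 ± 96.6 CPM in SMC-like and 2.75 ± 3.99 CPM in PC-like cells.

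Between the genotypes, of the 50 genes of the list that are no members, 28, 34, 28, 25 and 22 were tested in arterial, capillary and venous EC-like, SMC-like and PC-like cells, and none was called in any type by edgeR's quasi-likelihood test. In capillary EC-like cells 10 of the 14 nitric oxide genes tested were negative with a median log2 fold change of -0.03, against 0.004 over all genes. Their median absolute change, 0.060, was no larger than that of all genes, 0.067. The genes with the 2 smallest p in each type were Pde3b (-1.02, SE 0.50) and Npr3 (-0.71, SE 0.39) in arterial, Npr1 (-0.28, SE 0.10) and Ddah2 (-0.31, SE 0.14) in capillary, and Pde10a (-0.62, SE 0.22) and Ddah2 (-0.42, SE 0.16) in venous EC-like cells, as log2 fold changes. In SMC-like cells they were Trpc6 (-0.29, SE 0.18) and Slc7a1 (-0.21, SE 0.15), and in PC-like cells Kcnmb1 (-0.46, SE 0.30) and Gna13 (-0.33, SE 0.21). Npr1 is a natriuretic peptide receptor that makes cGMP, and Ddah2 breaks down an inhibitor of nitric oxide synthases.

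With age, 1 gene of the list was called, Nos1ap, an adaptor of neuronal nitric oxide synthase, in SMC-like cells (log2 fold change 1.28, SE 0.25, 95% interval 0.76 to 1.80, adjusted p = 0.0176 by edgeR's quasi-likelihood test). It was 2.75 to 9.44 CPM in the 6 mice at 6 months (42 UMIs in all) and 10.6 to 20.5 CPM in the 5 mice at 9 months (169 UMIs in all), without overlap. The call was lost without R182C-TgN3 4 (adjusted p = 0.0589), without WT-TgN3 2 (adjusted p = 0.0789) and without WT-TgN3 4 (adjusted p = 0.132) by the same edgeR test. Microglia-like cells held 157.2 ± 27.1 CPM of Nos1ap, and the summed level of 7 microglial markers in SMC-like cells was 271.1 to 423.3 CPM at 6 months and 161.1 to 538.2 CPM at 9 months.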

How the data were processed

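Single-cell libraries of CD31-selected brain microvessels from 11 mice (6 R182C-TgN3, 5 WT-TgN3) were analysed. The authors deposited raw UMI counts per gene and barcode, made with Cell Ranger 7.0.0 on mm10 with the human NOTCH3 gene added. The submitters' labels give kit version v3.2. A barcode counted as a cell when it had 500 or more genes and no more than 10% of its UMIs from mitochondria, 3279 scored doublets were removed, and cells were clustered (Leiden, 2000 variable genes, 30 components, resolution 1). Clusters were named from marker lists. The naming thresholds, the per-cell gate and the endothelial clusters set aside were settled after clusters of these data had been seen, and the members and gene lists were chosen with earlier results of these data known. UMIs were summed per mouse and type (at least 20 cells) without ribosomal, mitochondrial, Gm and Rik genes, as in the study's methods, and tested with edgeR 4.0.16 (R 4.3.3; filterByExpr, TMM, quasi-likelihood test, Benjamini-Hochberg over all genes tested, threshold 0.05). DESeq2 1.42.0 was an alternative, since the study used that tool.

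The mouse was the replicate. Other alternatives were no filter on low counts, all genes kept, DESeq2's size factors, batch or sex as a covariate, a replicate block, 1000 genes per barcode, a marker gate per cell, doubled resolution, doublets kept and leaving out each mouse. Leaving out barcodes shared between libraries was chosen after seeing the data. Named genes were the 10 members, and of 60 pathway genes those called or, failing that, with the 2 smallest p in each genotype comparison, plus the 3 genes most like each member among genes of at least 10 CPM in 1 type. On simulated counts with changed genes, edgeR recovered 86.2%, 84.8%, 92.5%, 85.0% and 56.0% of 2-fold changes in the genotype comparison in arterial (10464 genes), capillary (11639 genes) and venous EC-like (9783 genes), SMC-like (8662 genes) and PC-like cells (5686 genes). The simulated counts held many changed genes at once, 4-fold changes included, which eases the Benjamini-Hochberg threshold. In the data 0 or 1 genes were called for genotype in a type, so the threshold there was stricter. The recovered shares therefore do not give the chance that a 2-fold change of a member would have been called. Counting intervals and the limit set by a count of 0 (3 counts) cover counting error only. Clustering used Python 3.11.15 with igraph 0.11.9 and leidenalg 0.10.2. The label numbers of same-age mice were checked for pairing, as given in the closing section. No amino acid sequence was used.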

Additional observations from a re-analysis of the deposited data

Results flagged for a closer look

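In 5 of 64 groups of 4 to 6 mice tested, at mean levels of at least 10 CPM, the highest mouse stood apart from the rest of its group by Dixon's criterion, which by chance marks about 1 in 20 groups. Nos3 in venous EC-like cells was 332.1 CPM in WT-TgN3 4, with the next WT-TgN3 mouse at 237.2 CPM. In PC-like cells WT-TgN3 3 held 787.0 CPM of Gucy1a1 (146 UMIs in 79 cells), with the next WT-TgN3 mouse at 423.2 CPM, and 3186 CPM of Prkg1, with the next at 2339 CPM. This mouse had 2350 CPM of summed endothelial markers in its PC-like cells, the lowest of the WT-TgN3 mice. Pde5a in arterial EC-like cells was 48.6 CPM in R182C-TgN3 5 (83 UMIs), with the next R182C-TgN3 mouse at 30.7 CPM, and 46.1 CPM in WT-TgN3 3 (102 UMIs), with the next WT-TgN3 mouse at 29.1 CPM.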

How the results depend on the processing

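Counts of called genes depended more on the setting for age than for genotype. With age, DESeq2 called 199, 403 and 28 genes in arterial, capillary and venous EC-like cells, no filter on low counts gave 444 in arterial EC-like, 168 in venous EC-like, 223 in SMC-like and 134 in PC-like cells, and the marker gate gave 102 in capillary EC-like, 45 in venous EC-like, 13 in SMC-like and 1 in PC-like cells. For genotype by age, no filter gave 30 in arterial EC-like, 97 in venous EC-like, 18 in SMC-like and 132 in PC-like cells, and DESeq2 gave 9 in venous EC-like cells. For genotype in PC-like cells 1 gene was called with DESeq2, the marker gate, all genes kept, doubled resolution and doublets kept, and 5 with no filter. Leaving out 1 mouse at a time, age gave 17 (without WT-TgN3 1) to 170 (without R182C-TgN3 3) genes in arterial, 18 (without WT-TgN3 5) to 320 (without R182C-TgN3 3) in capillary and 1 to 10 in venous EC-like, 19 to 63 in SMC-like and 0 to 2 in PC-like cells, genotype by age gave 0 to 2 in arterial and 0 to 4 in venous EC-like cells, and genotype gave 0 to 1 in PC-like cells. With the replicate block the genotype counts were 0, 0, 0, 1 and 0 in arterial, capillary and venous EC-like, SMC-like and PC-like cells. Same-numbered mice of 1 age also shared a label batch, which in part held other numbers too, and their deviations were not correlated over 0.1 in every pair in any type, so the numbers were not taken to pair the mice. The correlation over 5 pairs ran from -0.121 to 0.197 in arterial, -0.0733 to 0.388 in capillary, -0.113 to 0.0572 in venous EC-like, -0.127 to 0.139 in SMC-like and -0.393 to 0.255 in PC-like cells.

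No member was called for genotype under any alternative, and the sign of its fold change held under all of them in 12 of 39 combinations of gene and type. Human NOTCH3 in SMC-like cells ranged from 2.28 to 2.70 (log2) over 23 settings, with adjusted p of 1.148e-08 to 0.00100 by edgeR or DESeq2, and Nos1ap with age from 1.13 to 1.45 over 14 settings. Of the recomputed levels of the members, 33 moved beyond 1 SD and 217 did not, and most of the former were in PC-like cells, the type with the fewest cells of the 5. The cause of these changes was not tested.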
